A study of Mus musculus with 3 samples.

Results

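The 3 miRNAs described here, miR-208a-3p, miR-208b-3p and miR-499-5p, are each encoded in an intron of a myosin heavy chain gene, and they were taken from the count table by their accessions, MIMAT0000520, MIMAT0004939 and MIMAT0003482. These are 3 of its 2049 rows. The libraries were made from small RNA of hearts of wild type C57BL/6 mice at postnatal day 1 (P1), day 7 (P7) and day 28 (P28), with 1 library at each age. The labels name hearts, and the study's text names cardiac ventricles. No treatment, transgene or deletion was carried by any of these mice. How many hearts went into a library is not given in the sources used here. With 1 library at each age, the spread between animals could not be measured. The counts summed over all rows to 1944237 for the P1 library, 2465680 for P7 and 2842526 for P28. These sums hold some reads more than once, because 12 mature rows repeat the counts of other rows and 14 stem-loop rows can hold reads that also count for a mature miRNA. The stem-loop rows took 6.72% of the P1 sum, 4.82% of the P7 sum and 4.04% of the P28 sum, and the 12 mature rows, whose counts lay within 1% of those of another accession in every library, took 9.50%, 8.35% and 12.4%. None of these rows is one of the 3 miRNAs, whose ratios to each other do not involve the sums.

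A miRNA is a short RNA that lowers the output of messenger RNAs by pairing with them, mainly through its seed, which is bases 2 to 8 from the 5′ end. Myh6 encodes α-myosin heavy chain (α-MHC), the main myosin motor of the adult mouse ventricle. Myh7 encodes β-myosin heavy chain (β-MHC), the slower motor of the fetal ventricle, and Myh7b is a related myosin gene transcribed in heart and slow skeletal muscle. Around birth the mouse ventricle replaces β-MHC with α-MHC, a switch that thyroid hormone is known to drive. miR-208a, miR-208b and miR-499 are transcribed within these genes, and all of them are known as miRNAs of striated muscle that act on the balance of fast and slow myosins.

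The mature sequences, from RefSeq on GRCm38.p6, are shown because miR-208a-3p and miR-208b-3p differ at few bases, on which the separation of their reads rests. Each is written 5′ to 3′ with the seed in capitals.
miR-208a-3p: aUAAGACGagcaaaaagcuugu
miR-208b-3p: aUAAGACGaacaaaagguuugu
miR-499-5p: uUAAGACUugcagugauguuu

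miR-208a-3p and miR-208b-3p had the same seed, which no other mouse mature miRNA among the 1679 names in the RefSeq table had. They were identical at 19 of 22 positions. Counted from 1 at the 5′ end, with the base of miR-208a-3p given before that of miR-208b-3p, the differences were G10A, A16G and C18U. A full-length read of one could thus be told from the other by 3 bases, whereas the 9 bases at the 5′ end were the same. miR-499-5p shared bases 2 to 7 with both and differed from them at base 8. It was identical to miR-208a-3p at 12 of the 21 positions compared and to miR-208b-3p at 10. These were also the only 3 names in the table with that stretch of bases 2 to 7. Each mature sequence occurred in 1 of 1005 mouse hairpins. The number of mismatches allowed when reads were counted is not stated.

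The hairpins from which they are cut are shown with the mature miRNA in capitals, since they differ in the arm that was counted.
Mir208a: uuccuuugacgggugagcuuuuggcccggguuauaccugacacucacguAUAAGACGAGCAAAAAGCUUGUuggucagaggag
Mir208b: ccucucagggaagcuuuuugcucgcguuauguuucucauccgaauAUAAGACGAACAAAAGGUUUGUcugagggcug
Mir499: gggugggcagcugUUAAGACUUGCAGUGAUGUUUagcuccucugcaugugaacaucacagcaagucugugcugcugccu

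miR-208a-3p and miR-208b-3p came from the 3′ arm of hairpins of 83 and 77 bases. miR-499-5p came from the 5′ arm of a hairpin of 79 bases.

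All 3 hairpins lie in introns, on the strand of the host gene, in the GENCODE M21 annotation of the same build. Mir208a is at chr14:54949060-54949142 on the minus strand, in intron 29 of the principal Myh6 transcript of 39 exons (intron at chr14:54948796-54949337). Mir208b is at chr14:54975700-54975776 on the minus strand, in intron 31 of the principal Myh7 transcript of 41 exons (chr14:54975418-54975878). The hairpins are 26557 bases apart, and Myh6 and Myh7 lie in tandem with 3756 bases between them. Mir499 is on another chromosome, at chr2:155622880-155622958 on the plus strand, in intron 19 of the principal Myh7b transcript of 42 exons (chr2:155622722-155623202). None of the hairpins overlaps an exon of these transcripts.

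The first question was how much of each miRNA the hearts held at each age. Reads were divided by the sum of the counts of the library, called the library total, and given as reads per 1000000 (CPM), with 95% Wilson intervals that cover counting error only. miR-499-5p was by far the most abundant of the 3 at every age. P1 hearts gave 8156 reads or 4195 CPM (4105 to 4287), P7 hearts gave 11449 reads or 4643 CPM (4559 to 4729), and P28 hearts gave 4642 reads or 1633 CPM (1587 to 1681). Among the rows of each library it ranked 27th, 24th and 42nd. Its level was thus similar at P1 and P7 and lowest at P28.

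miR-208b-3p, the miRNA of the β-MHC gene, was lower at each later age. The P1 library had 960 reads or 494 CPM (464 to 526), the P7 library 511 reads or 207 CPM (190 to 226), and the P28 library 111 reads or 39.0 CPM (32.4 to 47.0). It ranked 97th, 139th and 187th in abundance, and no interval overlapped that of another age.

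miR-208a-3p, the miRNA of the α-MHC gene, had its highest CPM at P7. It was lowest in P1 hearts, with 168 reads or 86.4 CPM (74.3 to 100.5). P7 hearts gave 544 reads or 221 CPM (203 to 240), and P28 hearts 354 reads or 125 CPM (112 to 138). It ranked 183rd, 131st and 134th. Its 3 intervals did not overlap either, with P28 between the other two.

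The order of the miRNAs changed with age. At P1 it was miR-499-5p, miR-208b-3p, miR-208a-3p, with no overlap between intervals. At P7 the levels of miR-208a-3p and miR-208b-3p had overlapping intervals. At P28 the order was miR-499-5p, miR-208a-3p, miR-208b-3p, again without overlap. Adapter ligation and amplification favour some small RNAs over others, so CPM of different miRNAs are not molar amounts. Comparing a miRNA with itself between ages is not affected by this as long as the bias is the same in each library. In heart tissue of mixed cells, fewer cardiomyocytes and less of a miRNA per cardiomyocyte cannot be told apart.

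**Figure D1:**
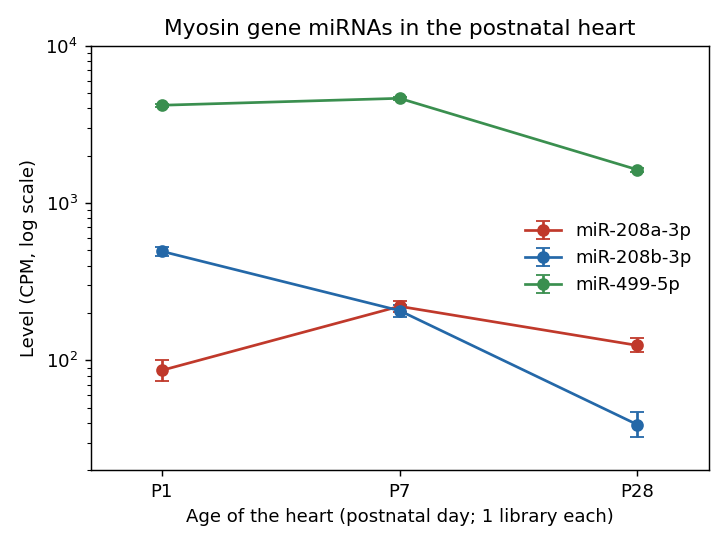
Level of each miRNA (CPM, log scale) in the 1 library of each age (P1, P7, P28), with 95% Wilson intervals of the counts as error bars. miR-499-5p lies at 1633 CPM or above at all ages, and the lines of miR-208a-3p and miR-208b-3p cross at P7, where they are at 221 and 207 CPM.

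The ratio of miR-208a-3p to miR-208b-3p needs no scaling between libraries, because the library total cancels. At P1, 168 reads of miR-208a-3p stood against 960 of miR-208b-3p, a ratio of 0.175 (95% Clopper-Pearson interval 0.148 to 0.206). At P7 the reads were 544 and 511, a ratio of 1.06 (0.942 to 1.20). At P28 they were 354 and 111, a ratio of 3.19 (2.57 to 3.98). miR-208b-3p therefore had 5.71 times the reads of miR-208a-3p at P1, the pair was level at P7, and miR-208a-3p was ahead at P28. As a share of the reads of the pair, miR-208a-3p made up 14.9% in P1 hearts (Wilson, 12.9 to 17.1), 51.6% in P7 hearts (48.5 to 54.6) and 76.1% in P28 hearts (72.1 to 79.8).

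Between libraries, this ratio was 6.07-fold higher at P7 than at P1 (exact conditional interval of the odds ratio 4.94 to 7.50). It was 2.99-fold higher at P28 than at P7 (2.33 to 3.86) and 18.1-fold higher at P28 than at P1 (13.8 to 24.1). On the log2 scale, the change between P1 and P28 was 4.18, of which 2.60 lay between P1 and P7 and 1.58 between P7 and P28. The steps are not of equal length, since the second spans more days than the first.

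The summed level of the pair was not constant. miR-208a-3p and miR-208b-3p together reached 580 CPM in P1 hearts (547 to 615), 428 CPM in P7 hearts (403 to 454) and 164 CPM in P28 hearts (149 to 179). From P1 to P7, the level of miR-208b-3p was lower by more CPM than that of miR-208a-3p was higher. At P28 both were below their P7 levels, so by library totals the higher ratio at P28 came with less of both miRNAs, and miR-208b-3p was lower by the larger factor.

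The ratios to miR-499-5p likewise do not depend on scaling. miR-208a-3p reads were 0.0206 of those of miR-499-5p in P1 hearts (0.0176 to 0.0240), 0.0475 in P7 hearts (0.0435 to 0.0518) and 0.0763 in P28 hearts (0.0683 to 0.0850). Relative to miR-499-5p, miR-208a-3p was therefore higher at each later age, by 3.70-fold between P1 and P28 (3.06 to 4.49). miR-208b-3p went the other way, at 0.118 of the miR-499-5p reads in P1 hearts (0.110 to 0.126), 0.0446 in P7 hearts (0.0408 to 0.0488) and 0.0239 in P28 hearts (0.0196 to 0.0289). Its log2 change relative to miR-499-5p was -1.40 from P1 to P7 (-1.56 to -1.24) and -2.29 from P1 to P28 (-2.60 to -2.01). Of the summed reads of the 3 miRNAs, miR-499-5p took 87.9% in P1, 91.6% in P7 and 90.9% in P28 hearts. miR-208a-3p held 1.81%, 4.35% and 6.93% at these ages, and miR-208b-3p held 10.3%, 4.09% and 2.17%.

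**Figure D2:**
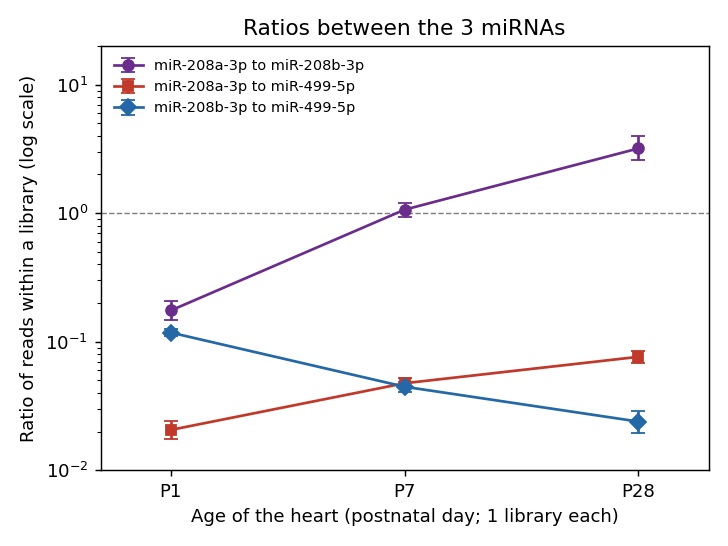
Ratio of reads between pairs of the 3 miRNAs within each library (log scale, dashed line at a ratio of 1), with 95% Clopper-Pearson intervals as error bars and 1 library per age. The ratio of miR-208a-3p to miR-208b-3p passes from 0.175 at P1 to 3.19 at P28, and the ratios of these miRNAs to miR-499-5p move in opposite directions.

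The next comparisons set each age against another across the whole table. A row with a mean of at least 10 CPM over the 3 libraries was compared, which left 317 entries, all 3 miRNAs among them. Ratios were taken on the log2 scale after adding 0.5 reads, and differences of at least 2-fold were called higher or lower. With 1 library per age these calls carry no p-value and no replicate check. The intervals below are Clopper-Pearson intervals of the reads and compare libraries, not ages.

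At P7 against P1, miR-208a-3p was 2.55-fold higher (2.14 to 3.05), a log2 ratio of 1.35 (1.10 to 1.61), and was called higher. Of the 317 entries, 306 had a lower ratio and 10 a higher one. In all, 10.4% of the entries were called higher in this comparison. miR-208b-3p was 2.38-fold lower (2.14 to 2.66), with a log2 ratio of -1.25 (-1.41 to -1.10), and was called lower, as were 11.7% of all entries. A lower ratio than that of miR-208b-3p was found in 19 entries. miR-499-5p had a log2 ratio of 0.15 (0.11 to 0.19), a 1.11-fold difference that lay outside counting error and was not called. The median entry was at 0.02. The 3 miRNAs thus took 3 courses in this comparison, and under each of the 3 other scalings their calls were the same. Over all entries, library totals gave 33 higher and 37 lower, and the total without the 10 most abundant rows gave 46 and 28.

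At P28 against P1, miR-208b-3p was 12.6-fold lower (10.4 to 15.5), with a log2 ratio of -3.65 (-3.96 to -3.38). Only 18 of the 317 entries had a lower ratio. miR-499-5p was 2.57-fold lower (2.48 to 2.66), a log2 ratio of -1.36 (-1.41 to -1.31). Both were called lower, but so were 40.7% of all entries, and with 3 miRNAs a count of 2 cannot be told from that share. miR-208a-3p had a log2 ratio of 0.53 (0.26 to 0.80), which is 1.44-fold, and was not called, while 12.3% of entries were called higher. The median entry was at -0.64 by library totals and at -0.15 when the 10 most abundant rows were left out of the total. How broadly the libraries differed was not tested. Relative to the median by library totals, the log2 ratio was 1.16 for miR-208a-3p, -0.72 for miR-499-5p and -3.02 for miR-208b-3p.

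Scaling therefore decided whether some of these miRNAs were called at P28 against P1. TMM scaling moved the median entry by 0.62, DESeq2 size factors by 0.63 and the total without the 10 most abundant rows by 0.49. Under these 3 scalings miR-208a-3p was called higher, at 1.15, 1.15 and 1.01 on the log2 scale, and miR-499-5p was no longer called, at -0.74, -0.73 and -0.87. miR-208b-3p stayed called lower under all 3, at -3.03, -3.03 and -3.17. Over all entries, TMM gave 76 higher and 83 lower, against 39 and 129 by library totals.

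At P28 against P7, miR-208b-3p was 5.29-fold lower (4.31 to 6.58), with a log2 ratio of -2.40 (-2.72 to -2.11), and 27 entries had a lower ratio. miR-499-5p was 2.84-fold lower (2.75 to 2.94), a log2 ratio of -1.51 (-1.56 to -1.46). Both were called lower, beside 39.1% of all entries, and 3.15% were called higher, none of the 3 miRNAs among them. miR-208a-3p was 1.77-fold lower (1.55 to 2.03) and not called. Its log2 ratio of -0.82 (-1.02 to -0.63) was near the median entry, at -0.64, and relative to this median it was -0.19. Under TMM its ratio was -0.27 and under DESeq2 size factors -0.18, so the difference of miR-208a-3p kept its direction but became small. The interval above holds for library totals, and none was computed for these scalings. Whether a peak of miR-208a-3p at P7 stands beyond counting error under them is therefore not shown. miR-499-5p was at -0.95 under TMM and -0.86 under DESeq2 size factors, which is below the 2-fold threshold in size, and was still called lower, at -1.17, without the 10 most abundant rows. TMM gave 40 higher and 72 lower entries here, against 10 and 124 by library totals.

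**Figure D3:**
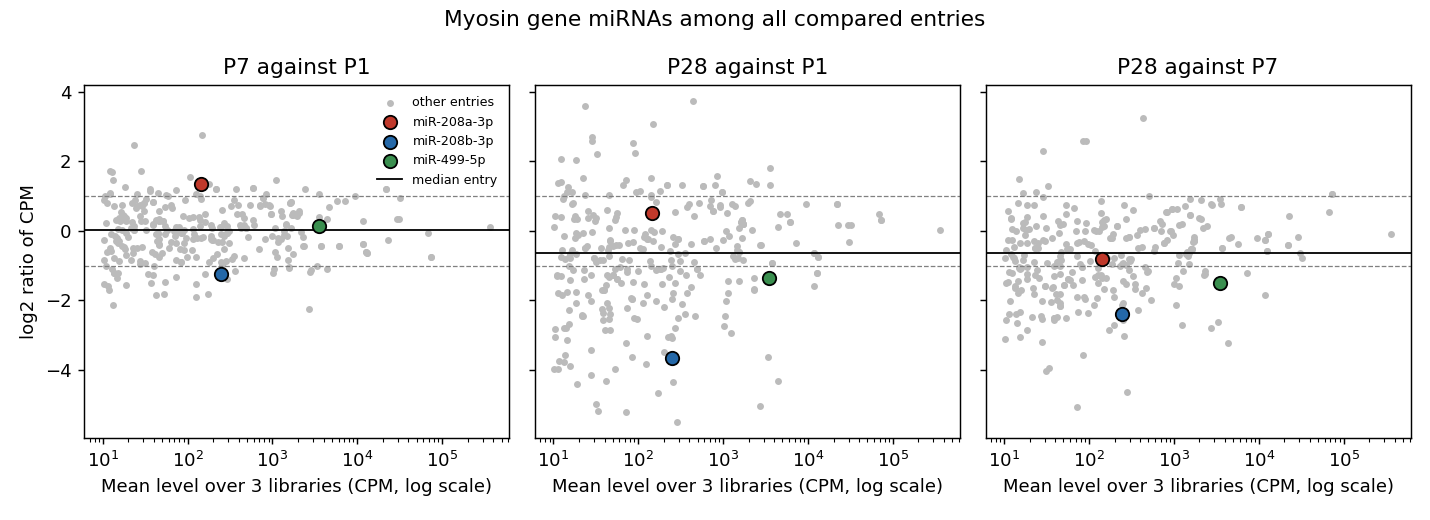
log2 ratio of CPM against the mean level over the 3 libraries (CPM, log scale) for the 317 entries compared (grey) and the 3 miRNAs (coloured), in each comparison of ages, with the median entry as a solid line and 2-fold as dashed lines. At P28 the median entry lies at -0.64 against both younger ages, and miR-208b-3p lies well below it in both panels.

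The variation between hearts could not be estimated, but its possible weight could be computed. The assumed variation was put on each library as if it held a single heart, and pooling of hearts would narrow the intervals. Those of single miRNAs were centred on the ratios by library totals. Other scalings would shift them, so which of them leave out 0 could change. If hearts varied with a coefficient of variation of 0.2, the interval of the log2 ratio would leave out 0 for all 3 comparisons of miR-208b-3p. It would also do so for miR-208a-3p at P7 against P1 (0.51 to 2.19) and, narrowly, at P28 against P7. The same holds for miR-499-5p in both comparisons with P28. With a coefficient of 0.4, only miR-208b-3p at P28 would leave out 0, with intervals of -5.28 to -2.03 against P1 and -4.03 to -0.78 against P7. The log2 change of the ratio of miR-208a-3p to miR-208b-3p, with the variation of each taken as independent, would then span 1.88 to 6.47 from P1 to P28, 0.32 to 4.88 from P1 to P7 and -0.71 to 3.87 from P7 to P28. At this assumed variation, the ratio would thus be distinguishable from no change between P1 and either later age, but not between P7 and P28.

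**Figure D4:**
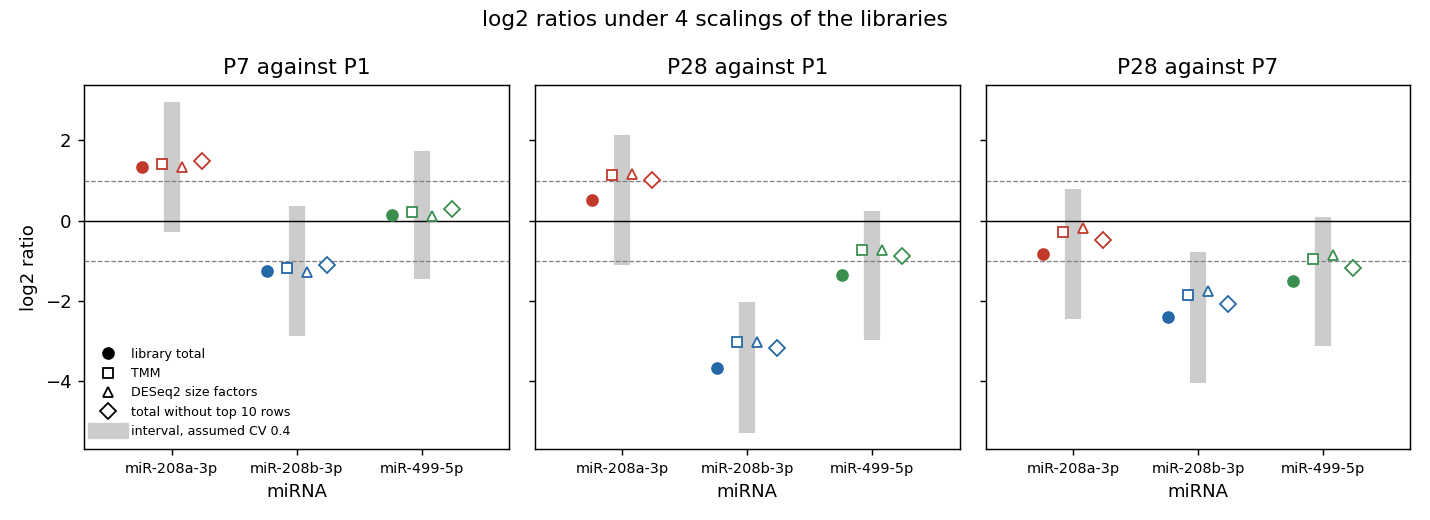
log2 ratio of each miRNA in each comparison of ages under 4 scalings (filled circle, library total; open symbols, the 3 others), with a grey bar for the interval by library totals at an assumed coefficient of variation (CV) between hearts of 0.4 and dashed lines at 2-fold. At P28 against P1, miR-208b-3p lies between -3.65 and -3.03 and its grey bar stays below 0, whereas the bars of miR-208a-3p and miR-499-5p cross it.

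Other entries were ranked by how closely their course followed that of each miRNA. The measure was the Euclidean distance between log2(CPM) profiles over the 3 libraries, each centred on its own mean, among 155 other mature entries whose mean level reached 100 CPM. Scaling cancels in this distance, and 3 points per profile make it a coarse one. The courses of miR-208a-3p and miR-208b-3p were 2.99 apart, farther than the 1.16 of the median entry from miR-208a-3p and the 2.42 of the median entry from miR-208b-3p. miR-499-5p was 1.35 from miR-208a-3p and 1.64 from miR-208b-3p.

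The closest entry to miR-208a-3p was MIMAT0000214, at a distance of 0.084, with 647 CPM in P1, 1770 CPM in P7 and 928 CPM in P28 hearts. The closest to miR-208b-3p was MIMAT0000549, at 0.19, with 6357 CPM in P1, 3155 CPM in P7 and 514 CPM in P28 hearts. The closest to miR-499-5p was a row of MIMAT0000513, at 0.15. This row had 231 CPM in P1, 260 CPM in P7 and 79.9 CPM in P28 hearts. Another row of the same accession, with a mean of 130 CPM, took a flatter course. Its log2 ratio to P1 was -0.21 for P7 and -0.23 for P28, where the closest row had 0.17 and -1.53. The table gives accessions without names, so these entries are not named. All were told apart from the 3 miRNAs by their own read counts, since no other row came within 10% of the reads of any of the 3 in every library.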

How the data were processed

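Small RNA libraries were prepared with a NEBNext kit, per the labels. Reads were aligned to mm10 with TopHat2 and counted with Bioconductor packages, as the study states for its sequencing in general. The miRBase release and the handling of strand and of reads with several matches are not given in the sources used here. The authors deposited raw read counts, 1 column per library, which were matched to ages by the age code in the column names.

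Accessions in the table are not paired with names. The 3 miRNAs were identified by the accessions set for them, and their names were matched to RefSeq sequences. They, the lists and the tests were chosen with earlier results of these data known. Entries named beside them were the 3 miRNAs and, for each, the closest course by the stated distance, of 3 ranked. The other arms, the muscle miRNAs and the cell type markers planned by name were not analysed here, so the labelled tissue was checked only by the presence of miR-208a-3p, a cardiac miRNA, in every library.

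CPM used the total of all 2049 rows, in which some reads are counted more than once. A count of 3 reads equals 1.54 CPM in the P1, 1.22 CPM in the P7 and 1.06 CPM in the P28 library. Intervals cover counting error only, and they may be too narrow because PCR duplicates could not be removed. The quasi-likelihood test of edgeR could not be fitted with 1 library per age, and no p-value is given. The fold rule was tested on simulated data for P28 against P1, with 200 of 2049 rows changed 4-fold and counting error as the only noise. It recovered 100% of the 65 changed rows that passed the filter and called 0.40% of 249 unchanged rows. The changed rows were set at 4-fold, above the 2-fold threshold, so high recovery was built in. Variation between hearts was left out of the simulated data. How often the rule errs on the real libraries was not tested. Tools were R 4.3.3, edgeR 4.0.16 (TMM), DESeq2 1.42.0 (size factors), Python 3.11.15, pandas 2.3.3, numpy 2.4.6, scipy 1.17.1 and matplotlib 3.10.9. Alternatives were the 3 other scalings, 1 row per mature accession, the same without repeated accessions (chosen after seeing the data; a row was taken as repeated when it was within 1% of another in every library, among rows with at least 300 reads in all), a pseudocount of 5 reads, filters at 1 or 100 CPM or none, a fold of 1.5 or 4, and an assumed variation between hearts of 0.2 or 0.4.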

Additional observations from a re-analysis of the deposited data

How the results depend on the processing

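The change of the ratio of miR-208a-3p to miR-208b-3p, and its level at each age, stayed within counting error with a pseudocount of 5 reads, and no scaling enters them. Pseudocount and 1 row per mature accession left all log2 ratios of the 3 miRNAs within counting error. When rows that repeat reads were also left out, an alternative chosen after seeing the data, every call of the 3 miRNAs was the same, and only miR-499-5p moved beyond counting error, to 0.095 at P7 versus P1 and -1.45 at P28 versus P7. Other scalings moved the values below beyond counting error, with no change of direction for any of the 3 miRNAs in any comparison. The values are given for TMM, DESeq2 size factors and the total without the 10 most abundant rows, in this order. At P28 versus P1 they were 1.15, 1.15 and 1.01 for miR-208a-3p, -3.03, -3.03 and -3.17 for miR-208b-3p, and -0.74, -0.73 and -0.87 for miR-499-5p. At P28 versus P7 they were -0.27, -0.18 and -0.48 for miR-208a-3p, -1.85, -1.75 and -2.06 for miR-208b-3p, and -0.95, -0.86 and -1.17 for miR-499-5p. At P7 versus P1, miR-499-5p was at 0.21 under TMM and 0.29 without the 10 rows. These scalings add 1 amount to every ratio of a comparison, so they shift all 3 miRNAs together.

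The counts of entries past 2-fold depended on scaling, filter and threshold, and are given as higher and lower. For P28 versus P1, there were 76 and 83 under TMM as under DESeq2 size factors. Without the 10 rows in the total there were 65 and 90. For P28 versus P7, TMM gave 40 and 72, DESeq2 size factors 46 and 63, and 27 and 92 were found without the 10 rows. At P7 versus P1 the total without the 10 rows gave 46 and 28, against 33 and 37. With a filter at 1 CPM the counts were 70 and 76 for P7 versus P1, 79 and 226 for P28 versus P1, and 42 and 213 for P28 versus P7. With 100 CPM they were 18 and 18, 19 and 55, and 3 and 50, and with no filter 225 and 206, 183 and 390, and 128 and 390. A fold of 1.5 gave 75 and 77, then 59 and 161, then 32 and 166. A fold of 4 gave 2 and 2, then 10 and 65, then 4 and 45. Filter and threshold act through the entries they admit.

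No paired analysis was possible because only 1 library was made per age, so no replicate was left out either. The alternative that sums both arms of each precursor was not run, since the other arms were not identified by name. Depth limits miR-208b-3p most, with 111 reads at P28.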
